A study of Homo sapiens with 18 samples.

Results

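The RAS, RAF, MEK and ERK genes described here are HRAS, NRAS, ARAF, BRAF, MAP2K1, MAP2K2 and MAPK3, which encode part of the core of the ERK1/2 kinase cascade. They were chosen by gene symbol, as 7 of the 58735 genes counted, and all 7 passed the filter on low counts in both count tables. Other genes of these families are not counted among the 7, and some appear below in lists of the pathway. RAS proteins are small GTPases that switch on at the membrane when receptors are engaged. Active RAS recruits RAF kinases, RAF phosphorylates the MEK kinases, and MEK phosphorylates ERK1 and ERK2, which enter the nucleus and act on transcription factors. The cascade is a common driver of growth in lung adenocarcinoma, where activating mutations in receptors, RAS or RAF often turn it on. Its activity is set by phosphorylation of the proteins, which RNA levels do not measure.

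RNA was sequenced from 2 established human lung adenocarcinoma lines, A549 and H358, in which RAD21 had been lowered or raised. RAD21 is a subunit of cohesin, the ring complex that holds sister chromatids together and extrudes chromatin loops. The 6 groups, with 3 libraries each, were A549 with a lentiviral hairpin against RAD21 (shRAD21), A549 with the matching control vector (shNC), H358 with shRAD21, H358 with shNC, A549 overexpressing RAD21 (RAD21OE) and A549 with empty vector (EV). The title of the series names ERK1/2 signalling, so the comparisons ask whether the genes of the cascade follow RAD21. No dose, time after transduction, clone or hairpin sequence is given, and the labels do not say whether the libraries of a group came from separate cultures, so that the p-values cover the variation seen among these libraries, possibly only technical.

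The 12 knockdown libraries, labelled as a batch of April 2024, held 15155077 to 19277568 counts, and the 6 overexpression libraries, labelled July 2024, held 13024640 to 14276335. RAD21 followed the labels. It had 129, 132 and 101 CPM (counts scaled to the size of the library) in A549 with shRAD21 and 257, 253 and 255 CPM in shNC, with a log2 fold change of -1.08 (SE 0.08, edgeR adjusted p = 2.99e-08). In H358 it had 379, 427 and 433 CPM with shRAD21 and 569, 589 and 603 with shNC, a log2 fold change of -0.51 (SE 0.08, adjusted p = 0.000671). With RAD21OE it had 1520, 1501 and 1306 CPM, against 195, 209 and 194 with EV, and RAD21OE counts do not separate the construct from the endogenous gene. Replicate 3 stood apart in the A549 shRAD21 and in the RAD21OE group, with median absolute log2 differences over genes of 0.30 and 0.31 to its fellow shRAD21 libraries and of 0.23 and 0.27 to its fellow RAD21OE libraries. All other pairs of replicates were at 0.15 or less. The epithelial keratin genes KRT8 and KRT18 were high in both lines, with mean KRT8 at 4680 CPM in A549 shNC and 1590 CPM in H358 shNC. The epithelial genes KRT19, EPCAM and CDH1 had 8.79, 3.65 and 66.7 CPM in A549 shNC. In H358 shNC they had 1500, 539 and 500 CPM. The leukocyte gene PTPRC was at most 0.376 CPM in any group mean, and the fibroblast gene COL1A2 at most 0.104. COL1A1, also listed for fibroblasts, had group means from 18.4 CPM in RAD21OE to 39.6 CPM in H358 shRAD21. The endothelial genes VWF and PECAM1 were at most 1.75 and 3.84 CPM. Among genes of alveolar type 2 cells, SFTPC was at or near 0 in both lines, whereas NKX2-1 had 121 CPM in H358 shNC and 0.0643 CPM in A549 shNC.

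The genes lie on 7 chromosomes (hg38, GENCODE 29). HRAS (ENSG00000174775) is on chromosome 11, minus strand, from 532242 to 537287, and NRAS (ENSG00000213281) on chromosome 1, minus strand, from 114704469 to 114716894. ARAF (ENSG00000078061) is on chromosome X, plus strand, from 47561100 to 47571920, and BRAF (ENSG00000157764) on chromosome 7, minus strand, from 140719327 to 140924928. MAP2K1 (ENSG00000169032), which encodes MEK1, is on chromosome 15, plus strand, from 66386817 to 66492312, and MAP2K2 (ENSG00000126934), which encodes MEK2, on chromosome 19, minus strand, from 4090321 to 4124129. MAPK3 (ENSG00000102882), which encodes ERK1, is on chromosome 16, minus strand, from 30114105 to 30123506. They differ widely in base composition. Exon GC content was 68.6% in HRAS, 63.5% in MAP2K2 and 62.0% in MAPK3, at percentiles 99.3, 94.6 and 92 of tested genes, and 38.4% in NRAS and 38.1% in BRAF, at percentiles 8.29 and 7.15. ARAF, at 53.6%, and MAP2K1, at 49.4%, lay between. Strandedness of the libraries is not stated, and 11.49% of the exon sequence of MAP2K1 and 5.29% of that of BRAF overlap genes on the other strand (SNAPC5 and AC116913.1 for MAP2K1, NDUFB2 for BRAF). ARAF, BRAF and MAP2K1 also have annotated pseudogenes with which reads could be confused.

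The RefSeq promoter windows (GRCh38.p14, 250 bases before to 50 after the RefSeq start, 5′ to 3′ on the gene's strand) are printed for HRAS, ARAF and BRAF, the 3 genes that passed the test when RAD21 was overexpressed, so that these windows can be compared. The windows are chr11:535527-535826 on the minus strand for HRAS, chrX:47560955-47561254 on the plus strand for ARAF and chr7:140924219-140924518 on the minus strand for BRAF. The ARAF window spans the GENCODE start of its gene at 47561100. Those of HRAS and BRAF lie inside the gene bounds given above, whose minus-strand starts are at 537287 and 140924928. They therefore describe RefSeq starts within these genes and not the outer GENCODE starts of the genes. The windows were not compared with the starts of single GENCODE transcripts. Capitals mark every match to the GC box GGGCGG, the ETS core CCGGAA, the CCAAT box and the TATA box TATAAA, on either strand.
HRAS: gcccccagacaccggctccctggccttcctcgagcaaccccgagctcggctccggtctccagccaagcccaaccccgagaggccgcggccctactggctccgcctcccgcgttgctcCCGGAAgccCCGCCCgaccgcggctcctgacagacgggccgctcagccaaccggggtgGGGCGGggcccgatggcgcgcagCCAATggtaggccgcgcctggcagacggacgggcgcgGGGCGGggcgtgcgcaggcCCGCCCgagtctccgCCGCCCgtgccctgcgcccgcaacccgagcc
ARAF: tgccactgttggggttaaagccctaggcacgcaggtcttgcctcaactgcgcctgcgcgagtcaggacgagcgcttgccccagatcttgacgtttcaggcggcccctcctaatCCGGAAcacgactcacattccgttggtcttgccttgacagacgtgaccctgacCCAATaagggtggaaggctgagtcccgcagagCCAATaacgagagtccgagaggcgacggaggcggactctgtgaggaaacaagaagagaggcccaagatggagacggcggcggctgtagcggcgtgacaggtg
BRAF: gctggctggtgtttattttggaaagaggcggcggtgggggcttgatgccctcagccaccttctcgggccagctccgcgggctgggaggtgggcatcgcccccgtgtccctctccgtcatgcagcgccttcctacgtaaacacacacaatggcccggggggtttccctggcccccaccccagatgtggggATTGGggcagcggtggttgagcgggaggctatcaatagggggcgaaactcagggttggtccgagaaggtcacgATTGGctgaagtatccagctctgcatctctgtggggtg
The HRAS window was 78.0% GC with 40 CpG dinucleotides, against medians of 58.7% and 14 over 35116 windows, and held 5 GC boxes, 1 ETS core and 1 CCAAT box. The ARAF window held no GC box, 1 ETS core and 2 CCAAT boxes, and the BRAF window neither GC box nor ETS core and 2 CCAAT boxes. At least 1 GC box was present in 45% of all windows, an ETS core in 17.2%, a CCAAT box in 34.6% and a TATA box in 11.5%. None of the 3 windows held TATAAA. These matches describe letters in a window and not bound sites.

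Levels per exon length are given as TPM, counts divided by exon length and scaled to the same total in every library, and BRAF had the lowest level of the 7 in every library. In A549 shNC, MAP2K2 (94.5 ± 1.30 TPM, SD, n = 3) and HRAS (93.2 ± 3.82 TPM) came first and did not differ beyond their spread, followed by ARAF (74.3 ± 3.02 TPM) and MAP2K1 (71.25 ± 2.71 TPM), which overlapped, NRAS (64.2 ± 3.82 TPM), MAPK3 (31.95 ± 0.6245 TPM) and BRAF (3.48 ± 0.288 TPM). In H358 shNC the order was MAP2K1 (112.7 ± 1.62 TPM) and NRAS (104.4 ± 6.25 TPM), MAP2K2 (76.7 ± 2.76 TPM) and ARAF (73.4 ± 1.78 TPM), HRAS (60.4 ± 0.512 TPM), MAPK3 (56.4 ± 2.70 TPM) and BRAF (5.37 ± 0.454 TPM), with the ranges of the first pair and of the second pair overlapping. In A549 EV, HRAS led with 119.0 ± 8.70 TPM, followed by MAP2K2 (87.0 ± 3.00 TPM), MAP2K1 (73.1 ± 4.66 TPM), ARAF (70.9 ± 3.88 TPM), NRAS (66.1 ± 2.52 TPM), MAPK3 (36.0 ± 0.546 TPM) and BRAF (3.74 ± 0.346 TPM), where MAP2K1 and ARAF overlapped, as did ARAF and NRAS. The TPM of BRAF divides by a merged exon length of 23432 bases, against 1854 to 5236 bases for the other members, which lowers its level per length if most transcripts use shorter exons.

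**Figure D1:**
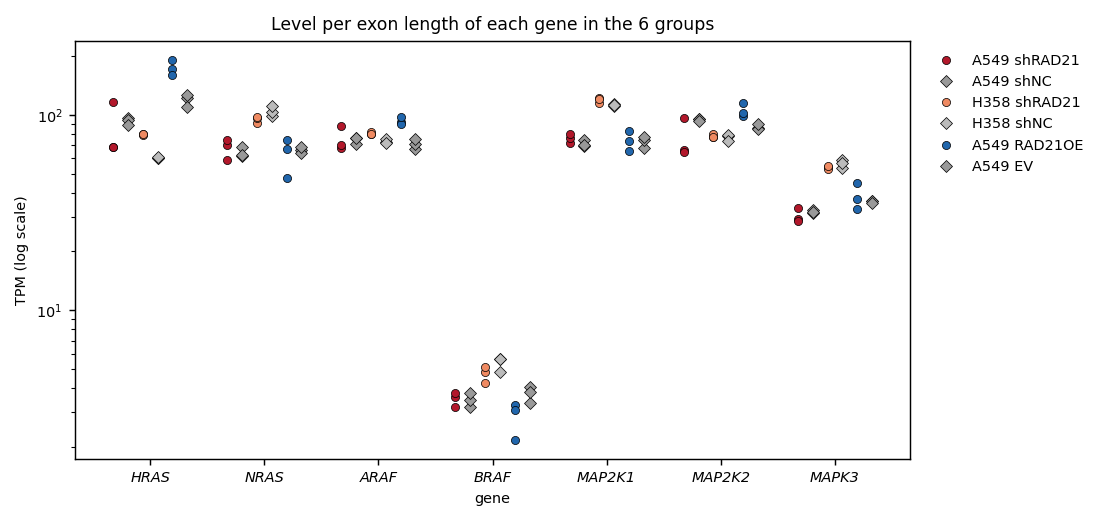
Level per exon length (TPM, log axis) of each gene, with 1 point per library, circles for cells with RAD21 lowered or raised and diamonds for their controls. BRAF lies between 2.18 and 5.64 TPM in all libraries and the other 6 genes between 28.7 and 191.7 TPM.

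The control lines themselves differed in every member. This comparison asks how the RNA levels of the members differ between the lines with the control vector. By edgeR's quasi-likelihood test all 7 passed in H358 shNC against A549 shNC, where 76% of all tested genes did (39.1% higher and 36.8% lower), so the count is close to its background. The ranges of the groups were apart for all 7 and for 81% of genes. HRAS had 28.5, 28.1 and 28.3 CPM in H358 and 58.9, 57.6 and 53.8 CPM in A549 (log2 fold change -1.0, SE 0.13, adjusted p = 2e-06). MAP2K2 was lower in H358 too, at 101.5 ± 4.397 CPM in H358 against 162.5 ± 3.19 CPM in A549 (-0.68, SE 0.10), and so was ARAF, at 65.6 ± 1.73 CPM in H358 against 86.2 ± 3.30 CPM in A549 (-0.39, SE 0.08). The other members of those pairs were higher in H358, with log2 fold changes of 0.32 (SE 0.09) for NRAS, 0.28 (SE 0.06) for MAP2K1 and 0.25 (SE 0.10, adjusted p = 0.0365) for BRAF, and MAPK3 had 0.44 (SE 0.07). The call of BRAF was lost in 7 of 16 alternatives, with adjusted p of up to 0.165, among them leaving out A549 shNC replicate 1 or 2 or H358 shNC replicate 2 or 3. That of ARAF was lost with library totals alone (-0.17, adjusted p = 0.0548), which moves the median of all genes to 0.27 against 0.05 with TMM scaling. The batch is the same for both lines, but each line is 1 source of cells.

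Overexpression of RAD21 in A549 was accompanied by more HRAS and ARAF RNA and less BRAF RNA. Of the 7 members, 2 were higher and 1 lower (edgeR), beside 27.8% of all tested genes called in either direction, 14.1% higher and 13.7% lower. HRAS, a RAS GTPase, had 87.7, 81.8 and 103 CPM in the RAD21OE libraries and 66.6, 59.4 and 69.3 CPM in the EV libraries. All 3 RAD21OE libraries lay above the EV libraries, and HRAS rose 1.39-fold (log2 fold change 0.48, SE 0.10, adjusted p = 0.00452). The call of HRAS was kept in all 17 alternatives, with log2 fold changes of 0.38 to 0.55 and adjusted p of at most 0.0385. ARAF, the RAF kinase encoded on the X chromosome, had 89.7, 87.8 and 99.8 CPM with RAD21OE and 69.8, 73.4 and 78.7 CPM with EV. Its groups did not overlap either, and it rose 1.25-fold (0.32, SE 0.09, adjusted p = 0.0171), but the call was lost without EV replicate 1 (adjusted p = 0.103) or EV replicate 2 (adjusted p = 0.0744). BRAF, the RAF kinase most often mutated in cancer, had 21.3, 19.9 and 14.8 CPM with RAD21OE and 23.2, 27.8 and 26.5 CPM with EV. The RAD21OE libraries all lay below, the lowest being replicate 3, and BRAF fell by 0.47 on the log2 scale (SE 0.14, adjusted p = 0.026), a call lost without EV replicate 2 (adjusted p = 0.117) or EV replicate 3 (adjusted p = 0.0873). The call was also lost with correction for GC content and exon length (-0.23, adjusted p = 0.0578), and with RAD21OE replicate 3 left out as well BRAF was at -0.21 (adjusted p = 0.11). In bulk RNA, fewer cells that express a gene and less RNA per cell cannot be told apart. Without RAD21OE replicate 3, in a fit that called 34.8% of all genes, the fold changes were 0.38 (adjusted p = 0.00016) for HRAS, 0.27 (adjusted p = 0.0029) for ARAF and -0.33 (adjusted p = 0.0206) for BRAF.

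Neither MEK gene, nor NRAS or MAPK3, passed the test with overexpression. MAP2K2 had 142, 148 and 175 CPM with RAD21OE and 132.5, 130 and 140.5 CPM with EV, ranges that did not overlap (log2 fold change 0.21, SE 0.09, adjusted p = 0.108), and it passed without RAD21OE replicate 1 (0.27, adjusted p = 0.039). Counting MAP2K2, 4 of 7 members had ranges apart, beside 45.4% of all genes. MAP2K1 had 85.8, 75.9 and 70.8 CPM with RAD21OE, inside and around the EV values of 75.2, 81.8 and 86.2 (-0.06, 95% interval -0.27 to 0.14). NRAS had 91.2, 81.8 and 61.3 CPM with RAD21OE, against 86.7, 82.9 and 90.6 with EV (-0.15, interval -0.41 to 0.11), and MAPK3 had 33.6, 37.5 and 47.4 CPM with RAD21OE, against 39.2, 39.1 and 38.6 with EV (0.02, interval -0.24 to 0.28). In both genes replicate 3 of RAD21OE was the library farthest from the EV values, low in NRAS and high in MAPK3.

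**Figure D2:**
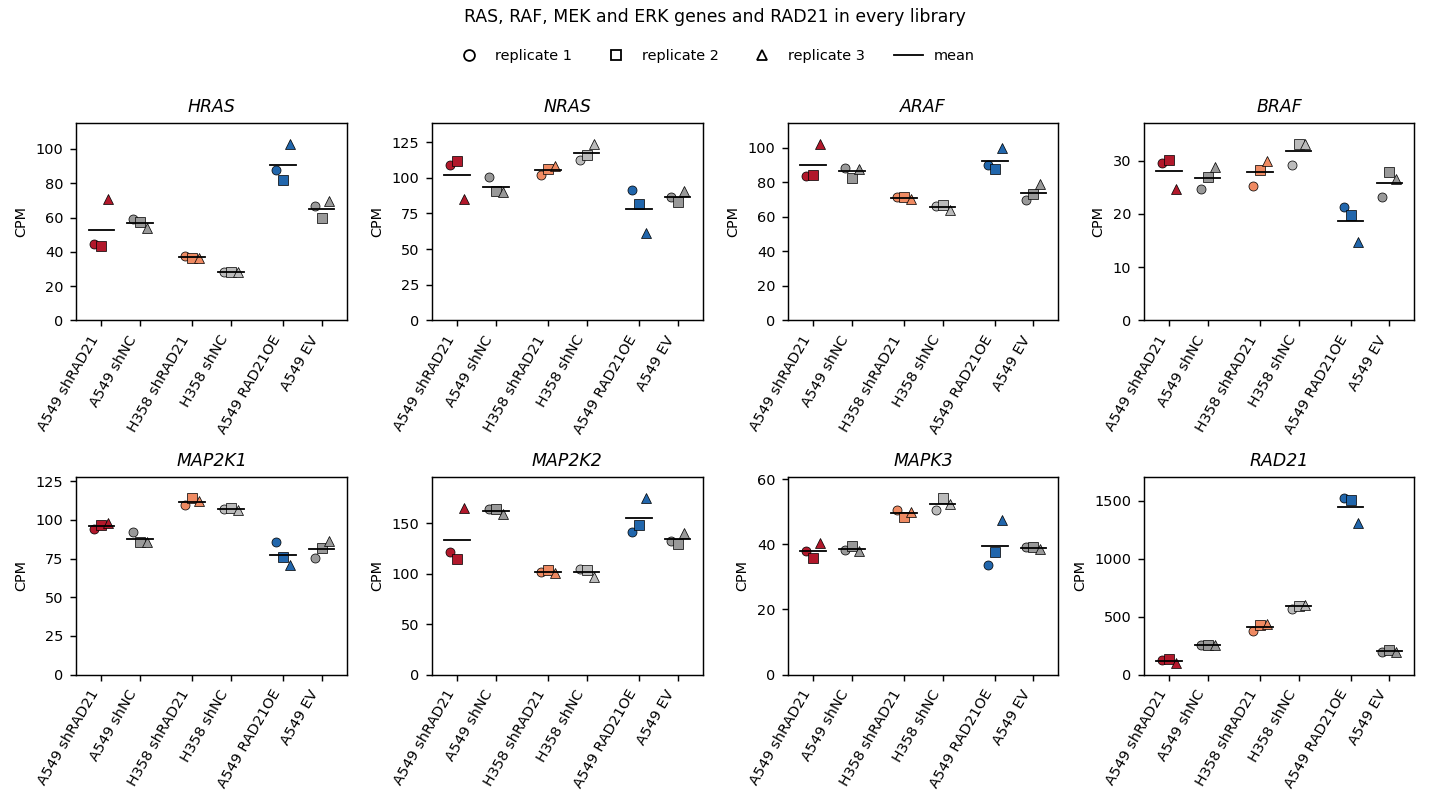
CPM of each member and of RAD21 in the 18 libraries, with the mean of each group as a line and the replicate number as the symbol. HRAS and ARAF lie above their EV libraries in all 3 RAD21OE libraries and BRAF below, while in A549 shRAD21 the 2 libraries other than replicate 3 have less HRAS and MAP2K2 than any shNC library.

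Knockdown in A549 lowered MAP2K2 by the test and moved no other member past it. That is 1 of 7 members, lower, beside 25.2% of all genes called, 14.4% higher and 10.9% lower, a balance that turned to 2240 higher and 2512 lower with library totals alone and to 2407 and 2552 with no filter on low counts. MAP2K2 had 121, 114 and 165.5 CPM in the shRAD21 libraries and 165, 164 and 159 CPM in the shNC libraries. Replicates 1 and 2 were below every control and replicate 3 was at the control level, so the ranges overlapped, with a log2 fold change of -0.28 (SE 0.10, adjusted p = 0.0451). The call was lost in 10 of 18 alternatives, among them leaving out shRAD21 replicate 1 (-0.22, adjusted p = 0.179), shRAD21 replicate 2 (-0.18, adjusted p = 0.23) or any shNC library (adjusted p 0.0795 to 0.119). Without shRAD21 replicate 3, in a fit that called 43.0% of all genes, the value was -0.46 (adjusted p = 4.08e-10). With each library corrected for GC content and exon length, as described further on, it was -0.07 (adjusted p = 0.287), and -0.08 (adjusted p = 0.168) without shRAD21 replicate 3 as well. MAP2K1, the other MEK gene, had 94.25, 96.9 and 97.9 CPM with shRAD21 and 92.2, 85.85 and 85.9 CPM with shNC. It was the 1 member whose ranges were apart, beside 32.7% of all genes, but it did not pass the test (0.13, SE 0.06, adjusted p = 0.138).

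HRAS and NRAS in A549 also hinged on replicate 3. HRAS had 44.65, 43.2 and 70.54 CPM with shRAD21 and 58.9, 57.6 and 53.8 CPM with shNC, with replicates 1 and 2 below and replicate 3 above all controls (log2 fold change -0.11, SE 0.13, adjusted p = 0.6). NRAS had 109, 112 and 85.3 CPM with shRAD21, against 101, 90.4 and 90.3 CPM with shNC, the mirror pattern (0.12, SE 0.09, adjusted p = 0.344). Without shRAD21 replicate 3 both passed, HRAS as lower (-0.37, adjusted p = 2.79e-05) and NRAS as higher (0.24, adjusted p = 0.000598). That fit called 43.0% of all genes, 23.2% higher and 19.9% lower. With GC and length correction as well, HRAS was 0.13 (adjusted p = 0.146) and NRAS -0.05 (adjusted p = 0.455). ARAF had 83.5, 84.2 and 102 CPM with shRAD21, against 88.4, 82.4 and 87.9 with shNC (0.06, interval -0.10 to 0.22), and BRAF 29.6, 30.03 and 24.7 CPM with shRAD21, against 24.7, 26.8 and 28.8 with shNC (0.07, interval -0.15 to 0.29). MAPK3 had 37.9, 35.7 and 40.3 CPM with shRAD21, against 38.1, 39.5 and 37.9 with shNC (-0.02, interval -0.18 to 0.14). These intervals leave room for changes of up to 0.29 on the log2 scale in ARAF, BRAF and MAPK3.

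Knockdown in H358 moved no member past the test. The count was 0 of 7 by edgeR, by DESeq2's Wald test and by limma-voom, beside 8.4% of all genes by edgeR, and 1 member, HRAS, had an unadjusted p under 0.05 with each tool. HRAS had 37.7, 36.2 and 36.7 CPM with shRAD21 and 28.5, 28.1 and 28.3 CPM with shNC. All 3 shRAD21 libraries lay well above the shNC libraries, and in the fit of all 12 knockdown libraries the log2 fold change of 0.38 (SE 0.14) had an adjusted p of 0.095. Fitted with only the 6 H358 libraries it passed (adjusted p = 0.000113), and so did NRAS in the other direction (adjusted p = 0.0198). That fit called 4473 genes, against 1591 in the fit of 12 libraries. NRAS had 102, 106 and 108.5 CPM with shRAD21 and 112.5, 116 and 124 CPM with shNC (-0.15, SE 0.09, adjusted p = 0.323 in the fit of 12 libraries).

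Ranges in H358 were apart for 4 of 7 members, HRAS, ARAF and MAP2K1 above and NRAS below, beside 36.1% of all genes. ARAF had 71.3, 71.6 and 70.3 CPM with shRAD21 and 66.2, 66.9 and 63.6 CPM with shNC (log2 fold change 0.12, interval -0.05 to 0.28). MAP2K1 had 109, 114 and 112 CPM with shRAD21, against 107, 108 and 106 with shNC (0.06, interval -0.06 to 0.19). BRAF had 25.2, 28.25 and 30 CPM with shRAD21, against 29.1, 33.1 and 33.1 with shNC, a partial overlap (-0.19, interval -0.41 to 0.02). MAP2K2 stayed at 102, 103 and 100.5 CPM with shRAD21, against 104.5, 103.5 and 96.5 with shNC (0.01, interval -0.21 to 0.22). MAPK3 had 50.4, 48.4 and 49.9 CPM with shRAD21, against 50.35, 54.1 and 52.4 with shNC (-0.08, interval -0.23 to 0.08).

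The test of the difference between the lines (A549 effect minus H358 effect) called 0 of 7 members by edgeR, DESeq2 and limma-voom, beside 17.6% of all genes by edgeR. At an unadjusted p under 0.05, edgeR and DESeq2 each had 2 members, HRAS and NRAS, and limma-voom added MAP2K2 to make 3. HRAS had a difference of -0.49 (SE 0.19, adjusted p = 0.0836), NRAS 0.28 (SE 0.13, adjusted p = 0.141) and MAP2K2 -0.29 (SE 0.14, adjusted p = 0.175). Without A549 shRAD21 replicate 3, HRAS (-0.75) and MAP2K2 (-0.47) passed as lower and NRAS (0.39) and BRAF (0.35) as higher. That fit called 37.5% of all genes, 17.9% lower and 19.6% higher. With all libraries and correction for GC content and length, the differences were -0.05 for HRAS, 0.03 for MAP2K2, 0.02 for NRAS and -0.05 for BRAF. RAD21 itself was lowered more in A549 (difference -0.57, SE 0.12, adjusted p = 0.00228), so the lines are compared at unequal depletion.

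**Figure D3:**
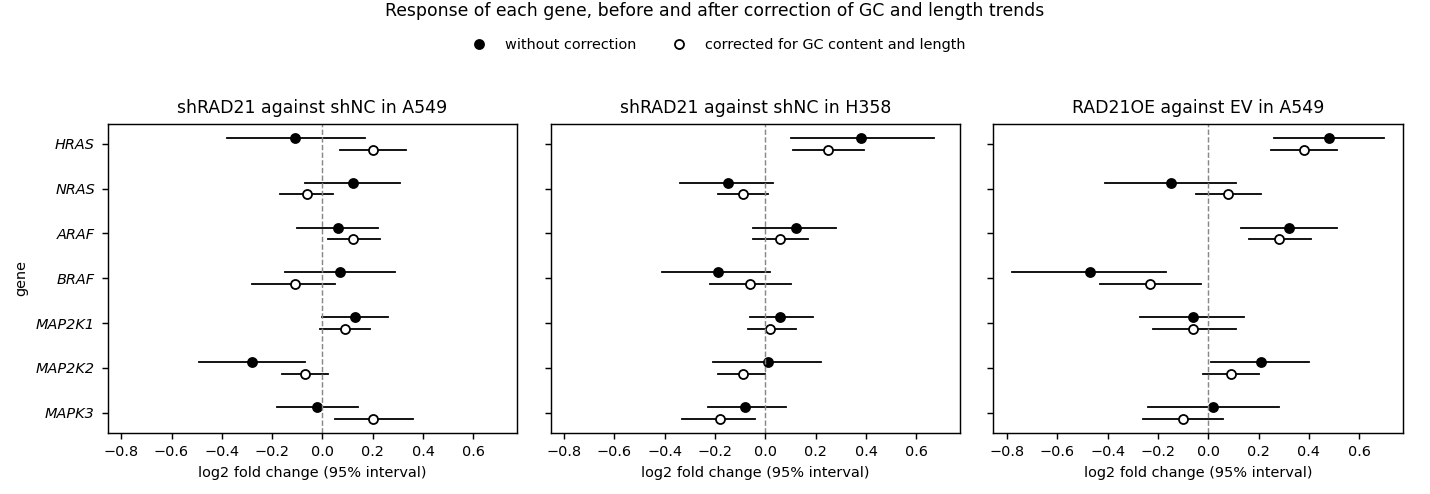
Log2 fold change of each member with its 95% interval in the 3 comparisons, without correction (filled) and after correction of each library for trends on GC content and exon length (open). With correction HRAS lies above 0 in all 3 panels (0.20, 0.25 and 0.38), and the MAP2K2 value in A549 shRAD21 goes to -0.07.

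Base composition moved with these fold changes. Over all tested genes, log2 fold change and exon GC content had a Spearman's rho of -0.33 with shRAD21 in A549, 0.186 with shRAD21 in H358 and 0.311 with RAD21OE (across genes, which share the same libraries). Genes above 60% GC had median log2 fold changes of -0.22, 0.09 and 0.14 in these comparisons, and genes below 40% GC had 0.17, -0.08 and -0.23. Per library, rho between GC content and the deviation from the mean was -0.464, -0.44 and 0.361 in A549 shRAD21, with the opposite sign in replicate 3, and -0.195, 0.0488 and 0.625 in RAD21OE. HRAS, MAP2K2 and MAPK3 are in the upper class and NRAS and BRAF in the lower one, and the part of GC content in their values was not tested beyond the correction given next.

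After each library was corrected for trends on GC content and length, MAP2K2 in A549 shRAD21 no longer passed (-0.07), nor did BRAF in RAD21OE (-0.23, SE 0.09). HRAS still rose in RAD21OE (0.38, SE 0.06, adjusted p = 0.00013) and so did ARAF (0.28, SE 0.06, adjusted p = 0.00141). HRAS also passed as higher in H358 shRAD21 (0.25, SE 0.07, adjusted p = 0.0104) and, with its sign turned, in A549 shRAD21 (0.20, SE 0.06, adjusted p = 0.0189), where MAPK3 was called higher too (0.20, SE 0.08, adjusted p = 0.0468). With shRAD21 replicate 3 left out as well, HRAS in A549 was 0.13 (adjusted p = 0.146) and MAPK3 0.30 (adjusted p = 0.000627). The difference between the lines was then called for MAPK3 (0.38, SE 0.10, adjusted p = 0.00816), and for HRAS it was -0.05. After correction 29.6% of all genes were called in A549 shRAD21, 17.6% in H358 shRAD21, 39.5% in RAD21OE and 21.4% for the difference between the lines. In the control lines HRAS stayed 0.99 lower in H358 on the log2 scale. The direction of HRAS in A549 knockdown thus changed with the correction, and its rise with overexpression kept its call.

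**Figure D4:**
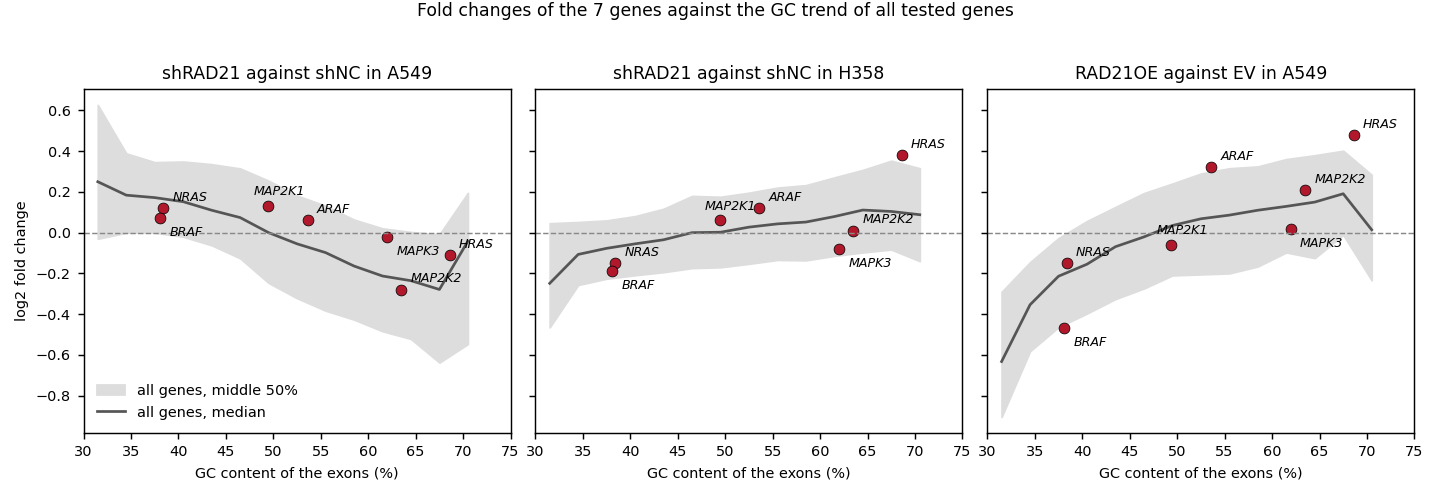
Log2 fold change of each member against the GC content of its exons, with the median and middle 50% of all tested genes in bins of GC content. The median slopes down for A549 knockdown and up for overexpression; in the overexpression panel ARAF and HRAS lie above the band and BRAF at its lower edge.

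Ratios within each pair of relatives cancel what scales a whole library. The log2 ratio of BRAF to ARAF per length was -4.81, -4.87 and -5.49 with RAD21OE and -4.32, -4.13 and -4.30 with EV, lower in all 3 RAD21OE libraries (difference -0.81), and in H358 it averaged -4.09 ± 0.14 with shRAD21 and -3.78 ± 0.12 with shNC (difference -0.31). That of NRAS to HRAS was -1.21, -1.26 and -2.01 with RAD21OE and -0.88, -0.78 and -0.88 with EV (difference -0.65), and in H358 it was 0.17, 0.29 and 0.30 with shRAD21 and 0.72, 0.78 and 0.86 with shNC (difference -0.53). MAP2K1 to MAP2K2 was 0.11, 0.24 and -0.28 in A549 shRAD21 and -0.36, -0.46 and -0.41 in shNC (difference 0.43). In these 5 cases the groups did not overlap and an exact two-sided permutation test gave p = 0.1, the smallest 3 libraries against 3 allow, or 0.15 adjusted over 12 tests. How often ratios of other gene pairs lie apart was not computed, so the count cannot be read as particular to these pairs. Single genes had ranges apart at 32.7% in A549 shRAD21, 36.1% in H358 shRAD21 and 45.4% in RAD21OE. The ratios of the control lines differed by 1.33 for NRAS to HRAS, 0.64 for BRAF to ARAF and 0.96 for MAP2K1 to MAP2K2 (H358 minus A549, exact p = 0.1 each). The other 4 tests had overlapping groups, with exact p of 0.2 to 1. The partners of each pair differ in GC content, and these ratios are not corrected for it.

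The genes around the cascade were followed in 7 lists of 96 genes, which were drawn up with earlier results of these data known. In RAD21OE, 15 of 90 tested list genes were higher and 11 lower (median log2 fold change 0.03, beside -0.01 for all genes). In A549 shRAD21 23 of 93 were higher and 19 lower (0.02, beside 0.00), and in H358 shRAD21 6 were higher and 9 lower (-0.02, beside 0.00). All genes were called in either direction at 27.8%, 25.2% and 8.4% in these comparisons, and the list genes were not matched to them for level. After GC and length correction the shares of all genes called were 39.5% in RAD21OE (24.0% higher, 15.5% lower), 29.6% in A549 shRAD21 (14.8% higher, 14.7% lower) and 17.6% in H358 shRAD21 (8.38% higher, 9.17% lower). Without replicate 3 of the group with RAD21 changed they were 34.8% in RAD21OE and 43.0% in A549 shRAD21. Corrected counts of a list are read against these shares, and genes named first in a list are those with the smallest adjusted p.

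Among activators and adaptors, which load RAS with GTP or link it to receptors, 7 of 16 were higher and 1 lower in A549 shRAD21 (median 0.28). GAB1, a docking adaptor, had 11.2 ± 1.96 CPM with shRAD21 and 6.71 ± 1.31 CPM with shNC (log2 fold change 0.73, SE 0.15), and RASGRP1, an exchange factor, had 3.51 ± 0.178 CPM with shRAD21 and 1.32 ± 0.796 CPM with shNC (1.41, SE 0.32). The adaptor SHC1 was the 1 that fell, at 241.2 ± 54.5 CPM with shRAD21 against 409.7 ± 8.46 CPM with shNC (-0.76, SE 0.11). After GC and length correction the count was 6 and 1 (median 0.13), and without shRAD21 replicate 3 it was 8 and 2 (median 0.43). In RAD21OE 1 of 15 was higher, the adaptor GRB2 (0.24, SE 0.07), and 5 were lower (median -0.20), led by the exchange factors RASGRP3 (-1.54, SE 0.21) and RASGRF2 (-1.43, SE 0.42). Both had low levels. RASGRP3 had 1.89 ± 0.351 CPM with RAD21OE against 5.53 ± 0.476 CPM with EV, and RASGRF2 0.579 ± 0.35 CPM against 1.59 ± 0.369 CPM. In H358 shRAD21 the RAS relative MRAS alone passed (0.67, SE 0.20, adjusted p = 0.0491), at 2.40 ± 0.144 CPM with shRAD21 against 1.49 ± 0.315 CPM with shNC. Corrected, the counts were 2 higher and 4 lower in RAD21OE and 2 and 2 in H358, and without RAD21OE replicate 3 overexpression had 1 and 5.

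Of the RAS GTPase-activating proteins and other negative regulators of RAS, DAB2IP was higher in each comparison, with 58.0 ± 8.33 CPM with shRAD21 against 37.7 ± 3.16 CPM with shNC in A549 (0.62, SE 0.09), 134.1 ± 4.15 CPM with shRAD21 against 95.1 ± 3.66 CPM with shNC in H358 (0.50, SE 0.09) and 58.3 ± 6.64 CPM with RAD21OE against 46.9 ± 2.63 CPM with EV (0.32, SE 0.10, adjusted p = 0.0359). The list counts were 2 higher and 1 lower of 10 in A549 shRAD21, 1 and 1 of 10 in H358 and 2 and 0 of 9 in RAD21OE, and after correction 2 and 4, 1 and 1, and 4 and 0. Without replicate 3 of the changed group they were 4 and 2 in A549 shRAD21 and 1 and 0 of 10 in RAD21OE. RASAL1 was the other gene higher in A549 (1.11, SE 0.24), RASA1 fell in H358 (-0.47, SE 0.09), and LZTR1, a RAS ubiquitin ligase adaptor, rose in RAD21OE (0.49, SE 0.16). Of 9 enzymes and carriers that lipidate and traffic RAS, 2 were higher and 1 lower in A549 knockdown, 0 and 1 in H358 and 1 and 1 in RAD21OE. In A549 knockdown the count was 3 and 0 after correction and 4 and 2 without shRAD21 replicate 3, and the other counts were the same under these alternatives. The palmitoyltransferase gene ZDHHC9 (0.30, SE 0.07) and the methyltransferase gene ICMT (0.20, SE 0.06) rose and the protease gene RCE1 (-0.32, SE 0.11) fell in A549. PDE6D, the RAS chaperone, fell in H358 (-0.37, SE 0.11), and with RAD21OE the farnesyltransferase subunit FNTB (0.51, SE 0.15) rose and the thioesterase LYPLA1 (-0.43, SE 0.15) fell.

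Of 22 scaffolds and modulators of RAF, MEK and ERK, 7 were higher and 1 lower in A549 shRAD21 (median 0.00), led by the 14-3-3 genes YWHAH (0.33, SE 0.06) and YWHAE (0.30, SE 0.06), whose proteins bind RAF. The scaffold CNKSR2 fell (-0.71, SE 0.15). Corrected, the count was 4 and 2, and without shRAD21 replicate 3 it was 9 and 7. In RAD21OE 6 were higher and 1 lower (median 0.08), with the smallest adjusted p in the chaperones HSP90AA1 (2062 ± 197.9 CPM with RAD21OE against 1452 ± 73.1 CPM with EV, 0.51, SE 0.08) and HSP90AB1 (0.42, SE 0.07). The largest called rises of that list were in ARRB1 (0.68, SE 0.12) and CNKSR2 (0.54, SE 0.13), both named after their values were seen, and PEBP1, the RAF kinase inhibitor protein, fell (-0.39, SE 0.08). YWHAH rose with RAD21OE too (0.40, SE 0.08), and HSP90AA1 rose with shRAD21 in A549 (0.27, SE 0.06). YWHAE with RAD21OE (0.14, SE 0.07) and HSP90AB1 with shRAD21 in A549 (-0.09, SE 0.05) were not called. In RAD21OE the count was 9 and 3 both after correction and without replicate 3. In H358 YWHAB (0.23) and PEA15 (0.36), an ERK-binding protein, rose and YWHAZ (-0.21) fell, 2 and 1 in all, and 5 and 2 after correction.

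Among 11 kinases and factors that ERK phosphorylates, the ETS factor ELK3 fell in A549 with shRAD21 (45.6 ± 7.23 CPM against 88.5 ± 2.71 CPM with shNC, -0.96, SE 0.10) and also with RAD21OE (67.6 ± 10.6 CPM against 99.1 ± 6.47 CPM with EV, -0.55, SE 0.11). The kinase gene RPS6KA3 rose in A549 knockdown (0.36, SE 0.10) and fell in H358 knockdown (-0.51, SE 0.10), and the test of that difference passed (0.86, SE 0.14, adjusted p = 0.000341). The counts were 1 higher and 3 lower of 11 in A549, with ERF (-0.61, SE 0.15) among those that fell, 0 and 2 of 11 in H358, where MKNK2 (-0.35, SE 0.09) was the other, and 1 and 2 of 10 in RAD21OE, where RPS6KA4 (0.42, SE 0.11) rose and MKNK2 (-0.55, SE 0.11) fell. Corrected, they were 2 and 3, 0 and 3, and 2 and 2, and without replicate 3 of the changed group 3 and 5 in A549 shRAD21 and 1 and 2 in RAD21OE. Of 15 other MEK and MAP kinase genes, 3 were higher and 3 lower in A549 knockdown, 2 and 0 in H358 and 1 and 2 in RAD21OE. Corrected, these counts were 2 and 3, 1 and 2, and 2 and 2, and without replicate 3 they were 6 and 5 in A549 shRAD21 and 1 and 2 in RAD21OE. The atypical kinase MAPK15 fell with shRAD21 in A549 (0.976 ± 0.376 CPM against 2.76 ± 0.294 CPM with shNC) and with RAD21OE (1.07 ± 0.341 CPM against 2.30 ± 0.340 CPM with EV). The p38 kinase gene MAPK11 fell in A549 knockdown (-1.21, SE 0.20), where MAPK9, a JNK gene, rose (0.34, SE 0.08), as it did in H358 (0.39, SE 0.08). MAP2K3 rose in RAD21OE (0.87, SE 0.10) and its fellow p38 activator MAP2K6 fell (-0.99, SE 0.12).

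The published 10-gene score of MAPK activity, whose genes lie downstream of ERK, had 9 lower and 1 higher in A549 shRAD21 (median -0.87), 4 lower and 0 higher in H358 shRAD21 (-0.24) and 0 lower and 3 higher in RAD21OE (0.16). This list's direction was known from these data beforehand. The medians of the 7 cascade genes were 0.06, 0.01 and 0.02. In A549 the counts were the same after correction and without shRAD21 replicate 3. In H358 shRAD21 7 were lower and 0 higher after correction (median -0.31), and in RAD21OE 0 lower and 4 higher after correction and 0 and 3 without replicate 3. The difference between the lines was called lower for 7 of the 10 score genes and higher for 1 (EPHA4, named after its value was seen), and for 0 of the 7 cascade genes, beside 7.61% of all genes lower and 9.94% higher. Corrected, 8 score genes were lower and 1 higher and 1 cascade gene was higher (MAPK3), beside 10.7% of all genes each way. Without A549 shRAD21 replicate 3, 9 score genes were lower and 1 higher and 2 cascade genes lower and 2 higher, beside 17.9% of all genes lower and 19.6% higher.

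**Figure D5:**
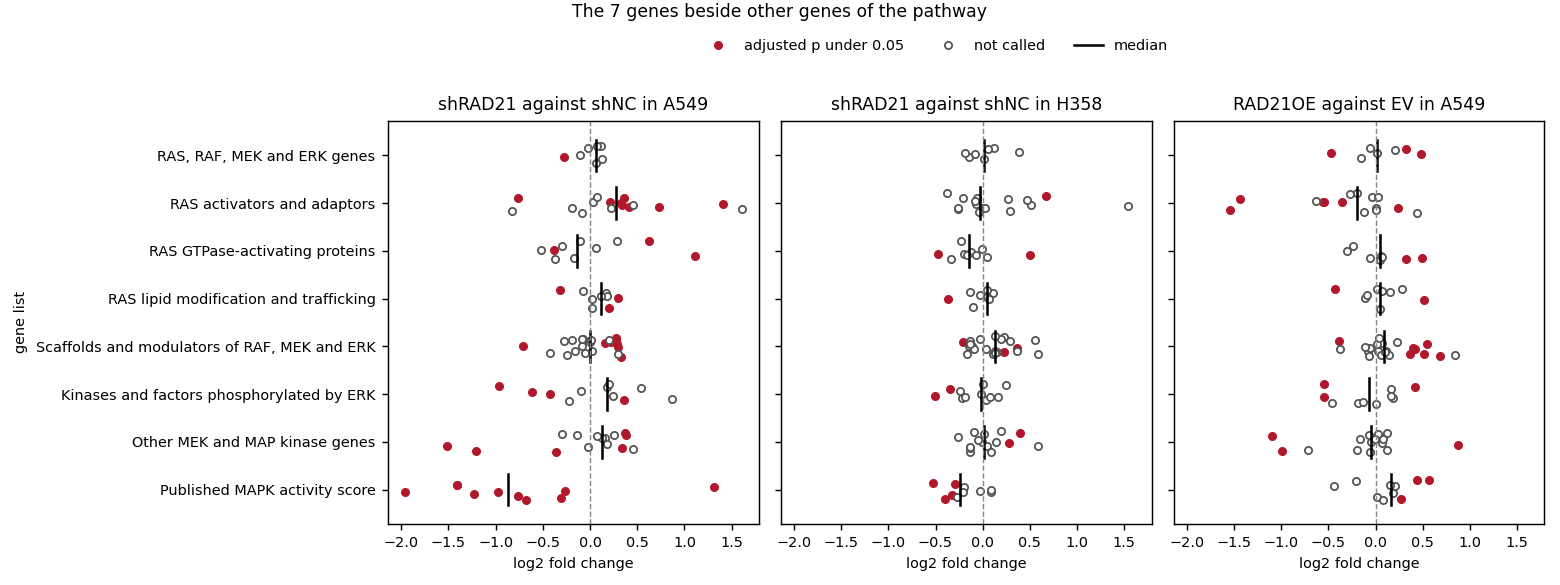
Log2 fold change of the 7 cascade genes and of each tested gene of 7 pathway lists in the 3 comparisons, filled where the adjusted p is under 0.05, with the median of each row as a vertical line. The cascade genes lie between -0.47 and 0.48 in every panel, while the MAPK activity score has medians of -0.87, -0.24 and 0.16.

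Genes whose pattern over the 18 libraries lay nearest to a member were found by the Euclidean distance between log2 CPM, each taken relative to its control group, among 9130 protein-coding genes with at least 10 CPM. Nearest to HRAS were CLUH (distance 0.255) and HSD17B10 (0.264), against a median over all genes of 1.45, and nearest to ARAF were SORD (0.193) and EIF4A3 (0.224), against 1.00. For MAP2K2 they were BCL2L1 (0.188) and AKT2 (0.194), against 1.11, and for BRAF PPM1A (0.287) and PSIP1 (0.338), against 1.38. As the smallest of 9130 distances these lie below the median by selection, and the medians serve only as a scale. The neighbours of HRAS had exons of 64.3% and 57.5% GC, those of MAP2K2 57.2% and 56.9% and those of BRAF 34.9% and 38.1%. Those of ARAF had 48.4% and 47.4%, below ARAF itself and near the medians of tested genes of 48.3% and 48.6% in the knockdown and overexpression tables.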

How the data were processed

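RNA sequencing was done on 18 libraries. Per the labels' protocols, TRIzol was used for extraction and a VAHTS Universal V6 kit for library construction. The authors deposited raw read counts for each gene as 2 tables, with merged exon lengths in bases. Tools named in the submitters' processing notes are featureCounts 1.5.0-p3, HISAT2 2.0.5 and fastp, with the build hg38. Count columns were matched to samples by the column names in the labels (0 unmatched), and all 58735 genes matched GENCODE 29 in position and exon length.

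The tests used edgeR 4.0.16 in R 4.3.3, and the alternatives limma 3.58.1 and DESeq2 1.42.0. The knockdown and overexpression tables were fitted separately with a mean for each group, after filterByExpr (18939 and 15462 genes) and TMM scaling. Groups were compared by the two-sided quasi-likelihood F-test, with Benjamini-Hochberg adjustment over all genes tested, and a gene rose, fell or was called if the adjusted p was under 0.05. Biological coefficients of variation were 0.0864 and 0.0981. CPM use library size and TMM factor, TPM use counts per merged exon length, and log2 CPM for distances a prior count of 2. Intervals are 95%. Exon GC content came from GENCODE 29 transcripts, and trends on it and on length were removed by natural splines with 5 degrees of freedom entered as offsets. Promoters are RefSeq's. The scripts were tested on simulated counts with known changes. These held no GC trend and no replicate set apart, so that the test does not cover either. Figures were drawn in Python with matplotlib.

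Named are the members, RAD21, the marker genes given, up to 2 genes higher and 2 lower with the smallest adjusted p per list and comparison, and the 2 nearest genes per called member. A gene that this rule would name is not reported here. The members and lists were chosen with earlier results of these data known. Alternatives were other scalings and filters, DESeq2, limma-voom, robust dispersion, the replicate number as a block, GC and length correction, only the libraries of a line, and leaving out each library. Correction with replicate 3 left out was added after seeing the data.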

Additional observations from a re-analysis of the deposited data

How the results depend on the processing

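The replicate numbers are shared across groups, but same-numbered libraries did not deviate together: the correlation of their deviations was between -0.0369 and 0.0674 over the 9 pairs. The labels do not say whether they shared a culture or a preparation, and that was not tested. With the replicate number as a block, 0 members were called lower in A549 knockdown (MAP2K2 -0.29, adjusted p = 0.0634) and no other count of members changed. Correction for GC content and length, without and with the block, gave 0 lower and 2 higher (with the block 1) in A549 knockdown, 1 higher in H358 knockdown, 1 higher for the difference between the lines and 0 lower with overexpression. After this correction, without the block, the shares of all genes called were 29.6%, 17.6%, 21.4% and 39.5% in the same order. With replicate 3 left out as well, A549 knockdown had 0 lower and 1 higher and overexpression 0 lower. With only the 6 libraries of a line, A549 knockdown had 0 lower and H358 knockdown 1 higher and 1 lower. With no filter on low counts, H358 knockdown had 1 higher and the difference between the lines 1 lower. With 1 library left out, members called ranged from 0 to 2 lower and 0 to 1 higher in A549 knockdown, 0 to 1 lower and 1 to 3 higher with overexpression, and 0 to 2 each way for the difference between the lines. The control lines kept 3 lower and had 3 to 4 higher. Leaving out A549 shRAD21 replicate 3 called 43.0% of all genes in A549 knockdown and 37.5% for the difference between the lines. Leaving out RAD21OE replicate 3 called 34.8% with overexpression.

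Signs turned for values that had not passed the test. Corrected for GC content and length, A549 knockdown had HRAS 0.20 (0.19 with the block), MAPK3 0.20 (0.20), NRAS -0.06 (-0.06) and BRAF -0.11 (-0.11), and without shRAD21 replicate 3 as well 0.13, 0.30, -0.05 and -0.15. Overexpression had NRAS 0.08 (0.08) and MAPK3 -0.10 (-0.10), and without RAD21OE replicate 3 as well NRAS 0.11, MAPK3 -0.15 and MAP2K1 0.03. H358 knockdown had MAP2K2 -0.09 (-0.09), and the difference between the lines ARAF 0.06 (0.06), BRAF -0.05 (-0.05) and MAP2K2 0.03 (0.03). With library totals alone the difference was -0.01 for MAP2K1 and -0.02 for MAPK3, and MAPK3 was -0.02 with overexpression, there and with the filter of 10 CPM in 3 libraries. MAP2K2 in H358 was 0.00 with no filter. Leaving out 1 library gave -0.04 to 0.11 for ARAF, -0.37 to 0.02 for HRAS and -0.07 to 0.02 for MAPK3 in A549 knockdown, -0.03 to 0.03 for MAP2K2 in H358 knockdown and -0.13 to 0.13 for MAPK3 with overexpression. The cause was not tested.

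Counts over all genes moved too. A549 knockdown had 4780 genes called and 3066 with its 6 libraries alone, H358 knockdown 1591 and 3324 after correction, 3034 with the block as well and 4473 with its 6 libraries, and the control lines 14392 and 9180 with the filter of 10 CPM. With 1 library left out the counts were 3443 to 8430 in A549 knockdown, 755 to 874 in H358 knockdown, 2177 to 5536 with overexpression (4297 with all) and 2235 to 7348 for the difference (3325 with all). The counts of 8430 and 7348 were without A549 shRAD21 replicate 3, that of 2177 was without EV replicate 2, and EV replicates 1 and 3 gave 2440 and 2705. The share of called genes that were higher went to 41.4% for the difference with library totals alone, against 56.6% with TMM, to 55.6% in H358, against 45.0%, and to 60.9% with overexpression after correction, against 50.7%. With library totals alone and with no filter, fewer called genes were higher than lower in A549 knockdown (47.1% and 48.5%, against 56.9%) and with overexpression (45.0% and 47.7%). A member had between 203 and 2700 counts in a library, and with 3 libraries a group changes inside the intervals given cannot be resolved.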
